A study of Mus musculus with 8 samples.

Results

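Gamma-delta (γδ) T cells were examined in the immune infiltrate of a mouse model of ependymoma. The cells were selected on RNA counts: a droplet barcode with at least 1000 unique molecular identifiers (UMIs, each standing for 1 captured RNA molecule), 200 to 6000 genes and at most 10% mitochondrial UMIs was taken as a γδ T cell if it held at least 2 UMIs of Cd3d, Cd3e and Cd3g together, at least 2 of Trdc, the constant region of the receptor δ chain, and none of Cd8b1 or Cd4. This gave 800 γδ T cells among 39632 barcodes that passed the filters. The comparator was alpha-beta (αβ) T cells of the same libraries, 6583 barcodes with the same CD3 minimum, no Trdc UMI and at least 1 of Trac, the constant region of the α chain.

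All mice carried EPZFTA-RELA tumours (NestinCreERT2;Fus1;RFPTdT), in which the ZFTA-RELA fusion is switched on by an inducible Cre under the Nestin promoter, active in neural stem and progenitor cells, so both groups were tumour-bearing and no tumour-free brain was part of the comparison. They were randomised at 3 weeks old and received 1 intrathecal injection of either a control antibody (vehicle IgG) or mavrilimumab at 5 mg per kg, an antibody against the α chain of the receptor for GM-CSF, a cytokine that acts on myeloid cells. For single-cell sequencing the study's methods give mice of 6 to 8 weeks old, and it describes tissue of the treated mice as taken at tumour recurrence. It also describes regression as lasting around 6 weeks after treatment, so the age at sampling is uncertain. The stains were CD45, which marks leukocytes, and Ter119, which marks erythroid cells, and the study describes those sorted for droplet sequencing as CD45+ cells from outside the vessels of the tumour. There were 4 gene expression libraries, 2 per group, and the study describes tumours as pooled within a group, with the number of mice per library not given in the labels, so a library is the replicate here and p-values measure the spread between libraries.

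γδ T cells carry a receptor made of a γ and a δ chain in place of α and β, and many of them recognise stress or microbial signals without classical antigen presentation. In the mouse, waves of γδ T cells leave the fetal and neonatal thymus with set receptor segments and a set programme. Those that pair the γ segment Trgv6 with the δ segment Trdv4 settle in tissues such as skin and the meninges. A pair of broad programmes is known, a type 17 programme, with interleukin 17A as its main cytokine and interleukins 23 and 1 as its inducers, and a type 1 programme run by T-bet (Tbx21) and Eomes, with interferon γ and cytotoxic granules.

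In the test described below, 22 of 24 tested genes of a type 17 list were higher in these cells than in αβ T cells, against 8.83% of all genes. The list was chosen with earlier results of these data known, so this count is a description. Its promoters were read from the RefSeq set of mouse promoters (build GRCm38.p6, 250 bases before to 50 after each start site). They were searched on both strands for AGGTCA (reverse strand TGACCT), a core that nuclear receptors are known to bind. Of the 26 list genes 18 matched a promoter, and 5 of these held the letters (27.8%), namely Actn2, Ccr6, Il17a, Il17f and Il23r, against 4900 of 27025 genes in the whole set (18.1%), so the share is a description only. The 250 bases before the start site are shown for the cytokine gene Il17a and the receptor gene Il23r, the members of the list that stand for its output and its input, with the matching letters in capitals.
Il17a, chr1:20730655-20730904, plus strand: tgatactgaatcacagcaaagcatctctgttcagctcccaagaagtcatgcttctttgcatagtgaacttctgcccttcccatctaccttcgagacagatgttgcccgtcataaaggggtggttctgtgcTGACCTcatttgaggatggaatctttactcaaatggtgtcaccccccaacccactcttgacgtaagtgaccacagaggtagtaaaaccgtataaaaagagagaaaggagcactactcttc
Il23r, chr6:67491856-67492105, minus strand: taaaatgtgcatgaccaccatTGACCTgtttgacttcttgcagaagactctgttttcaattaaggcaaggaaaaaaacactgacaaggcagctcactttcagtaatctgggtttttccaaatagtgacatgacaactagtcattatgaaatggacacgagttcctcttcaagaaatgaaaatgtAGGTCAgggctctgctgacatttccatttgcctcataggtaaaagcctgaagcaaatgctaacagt
The match in Il17a began 120 bases before the start site. In Il23r 1 match began 229 and the other 66 bases before it.

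The libraries differed widely, and this bears on each result below. They held between 24354457 and 148657643 UMIs over all droplets, and gave 29 and 391 γδ T cells in vehicle IgG 1 and 2 and 175 and 205 in mavrilimumab 1 and 2. The median γδ T cell held 16392, 2672, 5909 and 14506 UMIs in the same order, against 13515, 2846, 4073 and 12248 for αβ T cells, so the shallow library was vehicle IgG 2 and the one with few cells was vehicle IgG 1. Vehicle IgG 2 also carried RNA of neural or tumour cells in every class: Nnat, a neuronal gene, was found in 50.1% of its γδ T cells, 54.4% of its αβ T cells and 64.0% of its microglia, and in 5.22% or fewer of the γδ or αβ T cells of any other library. A doublet score marked 0%, 13.6%, 8.00% and 1.46% of γδ T cells in the order above, against 0%, 23.3%, 4.87% and 2.39% of αβ T cells. The share marked among all barcodes was fixed by their number, at 0.813%, 21.4%, 5.13% and 4.39%, so these are not measured doublet rates. These barcodes were kept, and their removal is among the alternatives. Between 0 and 60 filtered barcodes were shared by a pair of libraries, none of them a γδ T cell. In 3 of 3 receptor sequencing (TCR) files used, the sample name inside the file gave the other treatment than the label, and directions between treatments follow the labels.

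The selected cells held transcripts of a γδ receptor, and most carried 1 particular pair of segments, but many also held α or β constant region RNA. Levels are given as CPM, the UMIs of a gene scaled to the total UMIs of the class in that library. Trdc, which chose the cells, had a median of 8, 2, 4 and 6 UMIs per cell in vehicle IgG 1 and 2 and mavrilimumab 1 and 2. Trdv4 (ENSMUSG00000076867) stood at 2128, 2079, 2283 and 1621 CPM in γδ T cells and at 0.470, 56.3, 1.36 and 1.33 CPM in αβ T cells. Trgv6 (ENSMUSG00000076746) stood at 788, 918, 921 and 690 CPM against 0, 32.7, 2.07 and 2.13 CPM. The γ constant region Trgc1 (ENSMUSG00000076749) stood at 523, 547, 513 and 467 CPM against 16.0, 71.2, 8.60 and 22.3 CPM. The classes did not overlap in any of these genes, and the αβ value was highest each time in the shallow library vehicle IgG 2. These genes lie on the same receptor transcripts as the rule or accompany it, so their values are a description. The β constant region Trbc2 stood at 209, 72.6, 96.2 and 148 CPM in γδ T cells and at 366, 139, 180 and 200 CPM in αβ T cells. Only 1, 257, 62 and 23 γδ T cells held no UMI of Trac, Trbc1 or Trbc2. Of the γδ receptor genes 15 entered the fit described below and 14 were called higher, against 8.83% of all genes, which is a description for the same reason.

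**Figure D1:**
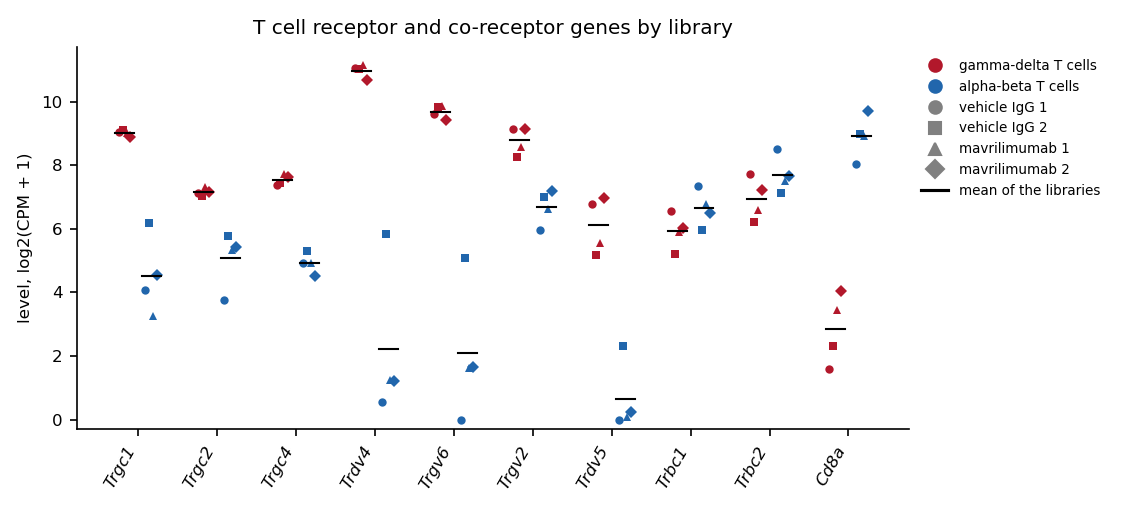
Levels of T cell receptor and co-receptor genes in γδ and αβ T cells, as log2(CPM + 1) on the vertical axis, with 1 symbol per library and a bar at the mean of the 4 libraries. Trdv4 lies between 1621 and 2283 CPM in γδ T cells and at 56.3 CPM or less in αβ T cells.

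Cell by cell, Trdv4 and Trgv6 went together. Both had at least 1 UMI in 69.0%, 83.9%, 72.6% and 57.1% of γδ T cells in vehicle IgG 1 and 2 and mavrilimumab 1 and 2, and neither in 27.6%, 9.46%, 25.1% and 34.6%. Trgv6 was seen in 95.2%, 94.0%, 96.9% and 88.0% of the cells with Trdv4, and in 0%, 11.9%, 0% and 1.39% of those without it. The δ segment with most UMIs was Trdv4 in 69.0%, 89.0%, 74.3% and 61.0% of cells and Trdv5 in 13.8%, 4.35%, 4.57% and 16.6%, while 10.3%, 5.37%, 16.6% and 15.6% held no δ segment UMI. Among γ segments Trgv6 led in 55.2%, 65.2%, 61.7% and 46.3% of cells and Trgv2 in 31.0%, 11.3%, 20.6% and 31.2%. Trgv2 stood at 566, 307, 382 and 558 CPM in γδ T cells and at 62.0, 127, 97.8 and 147 CPM in αβ T cells. Why Trgv2 led in part of the cells was not tested. Both a larger group with the Trdv4 and Trgv6 pair and a smaller one with neither were thus present in every library. In part of the smaller group no δ segment UMI was seen, so the receptor of these cells was not resolved.

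Trdv4 was far above the level of free RNA, which leaks from broken cells into all droplets. Trdv4 was seen in 72.4%, 89.3%, 74.9% and 64.9% of γδ T cells, and in 55.2%, 78.5%, 72.0% and 54.6% once each cell was thinned to 1000 UMIs. In αβ T cells it was seen in 0.645%, 5.43%, 0.283% and 0.596%, thinned 0%, 3.81%, 0.126% and 0.0994%. In microglia, chosen by at least 3 UMIs of P2ry12, Tmem119 and Cx3cr1 with no CD3 UMI and expected to lack the gene, the shares were 0.325%, 1.40%, 0% and 0.405%, thinned 0%, 0%, 0% and 0.270%. The αβ share in vehicle IgG 2 was thus above that of microglia in the same library. Reads of the α constant region were the reverse case: Trac had a UMI in 27.6%, 9.46%, 20.6% and 40.5% of γδ T cells (thinned 6.90%, 3.58%, 7.43% and 6.34%), more than in microglia (0%, 0.467%, 0.463% and 0.675%), and Trbc2, the β constant region, in 82.8%, 19.9%, 45.1% and 79.5% of γδ T cells (thinned 24.1%, 7.42%, 8.57% and 15.1%) and 0.926% or fewer of microglia. The shares of γδ T cells with Trac or Trbc2 were far from the background of these droplets, and whether they are doublets or transcripts of these cells was not tested.

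The Trdc minimum cut through a continuum in the shallow library. In vehicle IgG 1 and 2 and mavrilimumab 1 and 2 there were 6, 460, 41 and 20 cells with exactly 1 Trdc UMI just outside the rule, and 2, 230, 53 and 19 with exactly 2 just inside. Just outside, Trdv4 was seen in 100%, 87.0%, 61.0% and 50.0% of cells, just inside in 100%, 90.4%, 66.0% and 52.6%, and at 3 or more Trdc UMIs in 70.4%, 87.6%, 78.7% and 66.1%. A further 1, 15, 27 and 35 cells met the Trdc minimum but held a Cd4 or Cd8b1 UMI and were not counted.

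Receptor sequencing gave productive α or β chain contigs, which αβ T cells need and γδ T cells do not. The γδ rule did not use α or β transcripts, but the αβ comparator was chosen by a Trac UMI, the transcript that α contigs come from, so its high share is set in part by the choice and the difference is a description. By their barcodes, TCR file mavrilimumab 1 belonged to expression library mavrilimumab 2 (2491 of 2749 barcodes shared), TCR file mavrilimumab 2 to expression library mavrilimumab 1 (4867 of 5659) and TCR file vehicle IgG 1 to its namesake (182 of 193), and the files were joined in this way. A productive contig was found for 2 of 29 γδ T cells in vehicle IgG 1 (6.90%, exact 95% interval 0.846% to 22.8%), 33 of 175 in mavrilimumab 1 (18.9%) and 24 of 205 in mavrilimumab 2 (11.7%). The same share was 97.4%, 99.7% and 99.1% in αβ T cells and 0.163%, 9.26% and 4.05% in microglia. The mean was 12.5% ± 6.02 (SD, n = 3) in γδ T cells and 98.7% ± 1.18 (SD, n = 3) in αβ T cells, lower in 3 of 3 libraries by 86.2 points. Both chains together were productive in 2.31% of γδ and 94.5% of αβ T cells on average. With productive or not, however, any α or β contig was found for 92.5% of γδ T cells on average, close to the 99.2% of αβ T cells, and for 21.8%, 13.4% and 6.61% of microglia. The files held no productive γ or δ contig, and 0, 6 and 4 γδ T cells had any γ or δ contig.

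**Figure D2:**
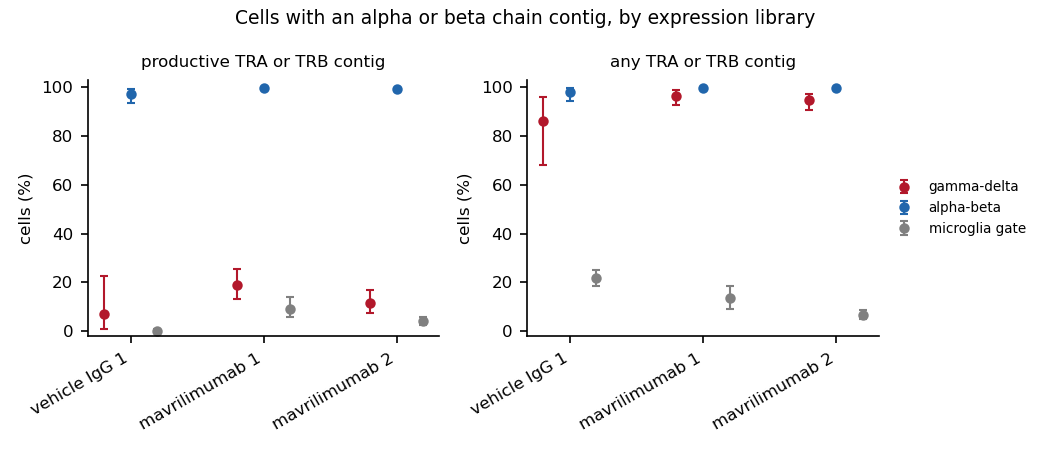
Percentage of γδ T cells, αβ T cells and microglia with an α or β chain contig in the 3 expression libraries that matched a TCR file, for productive and for any contig, with exact binomial 95% intervals as bars. Productive contigs lie at 18.9% or less in γδ T cells and at 97.4% or more in αβ T cells.

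To ask what else these cells express, UMIs were summed per class and library and γδ T cells were compared with αβ T cells of the same library by edgeR's quasi-likelihood test at a Benjamini-Hochberg false discovery rate (FDR) of 0.05. Of 10571 genes tested, 933 were higher in γδ T cells (8.83%) and 868 lower (8.21%), with a median log2 fold change of -0.03 over all genes. The comparator holds CD4 and CD8 cells while the rule removes Cd4 and Cd8b1 from γδ T cells, so αβ T cells with neither co-receptor served as an alternative comparator, against which 1091 genes were called.

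The type 17 list had the highest median of the lists compared. It was chosen with earlier results of these data known and holds γδ lineage genes such as Sox13 and Scart1. Its counts, here and in the division by Trdv4 below, are thus a description. Of 24 list genes tested, 22 were higher in γδ T cells, 0 lower and 2 not called, with a median log2 fold change of 4.14. With each library left out, 21 or 22 of 24 were called higher, and against αβ T cells without co-receptors 21 of 24 with a median of 2.61. Sox13, a transcription factor of the γδ lineage, stood at 123, 91.0, 100.4 and 86.2 CPM in γδ T cells of vehicle IgG 1 and 2 and mavrilimumab 1 and 2, and at 0, 5.26, 0.259 and 0.216 CPM in αβ T cells, with no overlap (log2 fold change 6.76, SE 0.72, edgeR FDR 1.03e-03). Other regulators were also higher: Maf by 2.63, Zbtb16, the PLZF factor of innate-like T cells, by 4.03, Rora by 1.96 and Ahr by 1.24 on the log2 scale. Ahr lost its call against αβ T cells without co-receptors.

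The receptors that take in type 17 signals followed. Il23r (ENSMUSG00000049093), the interleukin 23 receptor whose promoter is printed above, stood at 699.7, 381, 328 and 259 CPM in γδ T cells and at 5.17, 27.2, 3.95 and 5.01 CPM in αβ T cells (log2 fold change 5.46, SE 0.47, edgeR FDR 5.18e-04). Il1r1, the interleukin 1 receptor, stood at 410, 342, 204 and 213 CPM against 0.940, 25.9, 2.13 and 2.38 CPM (5.68, SE 0.58). Neither receptor gene overlapped between classes. Il17re, a subunit of the interleukin 17C receptor, was higher by 5.20, Il18r1 by 2.17 and Ccr2, a chemokine receptor for tissue entry, by 2.86, from 41.7 to 74.9 CPM in αβ to 368 to 536 CPM in γδ T cells. Il7r was higher by only 0.50 and lost its call without either mavrilimumab library. Ccr6, another receptor of type 17 cells, was not called, at 8.21, 14.4, 10.0 and 25.7 CPM in γδ and 7.52, 4.60, 7.44 and 2.20 CPM in αβ T cells (1.66, edgeR FDR 0.106).

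The cytokine itself varied among the libraries. Il17a (ENSMUSG00000025929) stood at 94.4, 473, 160 and 131 CPM in γδ T cells and at 5.17, 32.0, 0.129 and 2.34 CPM in αβ T cells (log2 fold change 5.31, SE 0.67, edgeR FDR 2.15e-03). The highest value of either class was that of vehicle IgG 2, and the classes did not overlap. At least 1 Il17a UMI was seen in 37.9%, 40.2%, 26.3% and 34.1% of γδ T cells (thinned 6.90%, 27.9%, 10.3% and 13.7%), in 0.645%, 2.68%, 0.0628% and 0.199% of αβ T cells and in 0%, 0.234%, 0% and 0.135% of microglia. Il17f and Il22, cytokines of the same programme, were at 3.99 CPM or less and too low to be tested. Among other cytokines 3 of 6 tested genes were higher and 0 lower. Csf2 (ENSMUSG00000018916), which encodes GM-CSF, stood at 96.4, 109, 99.5 and 79.8 CPM in γδ T cells and at 1.88, 11.4, 3.43 and 9.04 CPM in αβ T cells (3.79, SE 0.36, edgeR FDR 7.06e-04). A Csf2 UMI was present in 51.7%, 26.1%, 41.1% and 45.9% of γδ T cells (thinned 10.3%, 11.5%, 6.86% and 7.80%) and in 6.16% or fewer of αβ T cells. Tnfsf11, the RANK ligand, was higher by 1.82 and Lta, lymphotoxin α, by 1.83.

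The remaining type 17 genes were surface and cytoplasmic proteins of such cells. Scart1 (ENSMUSG00000025461), a scavenger receptor typical of these γδ T cells that was among the marker genes proposed with these data in view, stood at 2327, 2096, 2219 and 1772 CPM against 0, 67.9, 3.49 and 5.01 CPM (log2 fold change 7.89). Blk, a kinase of B cells and of γδ T cells, stood at 501, 523, 617 and 471 CPM against 0, 27.4, 4.46 and 2.74 CPM (6.43, SE 0.67). Serpinb1a was higher by 5.11, Kcnk1 by 5.62, Tmem176a by 4.31, Tmem176b by 4.24, Actn2 by 3.43, Scart2 by 3.60 and Cd44, an adhesion receptor of activated T cells, by 1.40. Batf was the other uncalled gene of the list (-0.39, edgeR FDR 0.162).

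**Figure D3:**
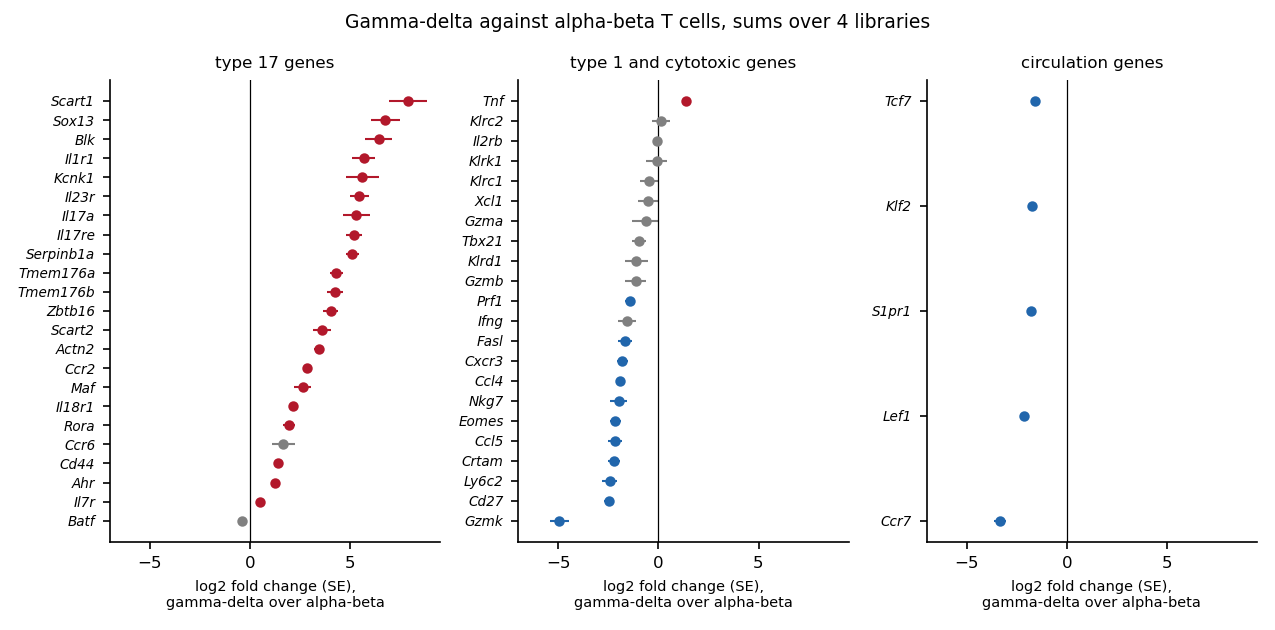
Log2 fold changes of γδ over αβ T cells for tested genes of the type 17, type 1 and circulation lists, with standard errors as bars, from sums over 4 libraries. Red is called higher, blue called lower and grey not called: type 17 genes other than Batf lie to the right of 0, with Scart1 at 7.89 and Sox13 at 6.76, and circulation genes to the left, with Ccr7 at -3.33.

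The type 1 and cytotoxic list went the other way in part. Of 22 genes tested, 1 was higher, 11 lower and the rest not called, with a median log2 fold change of -1.51. Nkg7, a granule protein, stood at 254, 105, 476 and 824 CPM in γδ and 658, 1484, 1518 and 1725 CPM in αβ T cells (-1.99, SE 0.41, edgeR FDR 0.0155), overlapping between libraries, and lost its call without vehicle IgG 1 or mavrilimumab 1. Ccl5, a chemokine of effector T cells, stood at 503, 180, 824 and 1305 CPM against 2084, 2082, 2984 and 2663 CPM (-2.15, SE 0.35, edgeR FDR 5.66e-03). Gzmk, a granzyme of memory CD8 cells, had a log2 fold change of -4.94, Cd27 -2.48, Ly6c2 -2.44, Crtam -2.21, Eomes -2.15, Ccl4 -1.93, Cxcr3 -1.81, Fasl -1.68 and Prf1, perforin, -1.44. Fasl lost its call without vehicle IgG 1, and Eomes, Ccl4 and Prf1 against αβ T cells without co-receptors. Tbx21 (-0.98, edgeR FDR 0.111), Ifng (-1.58, edgeR FDR 0.0573) and Gzmb (-1.14, edgeR FDR 0.204) were not called. Against αβ T cells without co-receptors, however, Tbx21 (-1.11, edgeR FDR 0.0420) and Gzmb (-1.97, edgeR FDR 6.90e-03) were called lower, and Ifng was called lower against αβ T cells drawn to the same depths (-1.64, edgeR FDR 0.0266). Tnf was the gene that was higher, at 152, 76.6, 139 and 95.2 CPM against 27.7, 33.5, 53.4 and 44.5 CPM (1.38, SE 0.21, edgeR FDR 4.11e-03).

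Genes of recirculation were lower and a main gene of tissue retention higher. Circulation genes were lower in 6 of 6, with a median log2 fold change of -1.94. Ccr7, which guides cells to lymph nodes, stood at 12.3, 4.79, 10.0 and 19.4 CPM in γδ and 343, 65.1, 45.3 and 147 CPM in αβ T cells (-3.33). Lef1 had -2.12, Tcf7 -1.61, and S1pr1, the exit receptor, and its activator Klf2 both -1.76, Klf2 losing its call against αβ T cells without co-receptors. Cxcr6 (ENSMUSG00000048521), a chemokine receptor of resident T cells, stood at 1319, 1278, 1488 and 1241 CPM against 272, 382, 355 and 427 CPM (1.83, SE 0.13, edgeR FDR 2.86e-04), the groups well apart and the γδ values close together. The residency list as a whole had 2 higher, 0 lower and a median of 0.13 over 10 genes, near that of all genes, and its other call, Bhlhe40 (0.42), was lost without vehicle IgG 1, vehicle IgG 2 or mavrilimumab 2 and against both other sets of αβ T cells.

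Genes of T cell receptor signalling divided. Of 18 tested, 3 were higher and 9 lower, with a median log2 fold change of -0.66. The kinase Lck stood at 135, 34.3, 169 and 245 CPM in γδ and 752, 460, 841 and 681 CPM in αβ T cells (-2.48). The costimulatory receptor Cd28 stood at 30.8, 2.39, 16.7 and 14.0 CPM against 241, 91.2, 192 and 97.0 CPM (-3.38). Neither gene overlapped. Cd6 had -3.38, Themis, a factor of T cell selection, -3.60, Cd5 -2.63, Id3 -2.51, Cd2 -2.39 and Hcst -0.57. Higher were Cd247, the CD3 ζ chain, by 0.73, Zap70, the kinase that binds it, by 0.68, and Cd226 by 0.62. Cd247 lost its call without vehicle IgG 1 or mavrilimumab 2, and Cd226 without vehicle IgG 1 or mavrilimumab 1 and against αβ T cells without co-receptors.

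Checkpoint and interferon genes were lower or not called. Of 10 checkpoint genes 0 were higher and 4 lower (median log2 fold change -1.21): Btla by -3.03, Ctla4 by -2.42, Tigit by -1.90 and Entpd1 by -1.55, with Tigit not called without vehicle IgG 1 or mavrilimumab 1. Pdcd1, which encodes PD-1, was at 267, 247, 192 and 188 CPM in γδ and 40.4, 93.6, 185 and 79.7 CPM in αβ T cells, without overlap (1.20, edgeR FDR 0.0578), and was called higher with doublets removed (edgeR FDR 0.0347) and without mavrilimumab 1 (1.60, edgeR FDR 0.0163). Of 15 interferon-stimulated genes 0 were higher and 7 lower (median -0.58). Ifi27l2a stood at 347, 75.0, 572 and 396 CPM against 1015, 637, 2546 and 1535 CPM (-2.23). Mx1 (-1.21), Ifit3 (-1.12), Rsad2 (-0.85), Isg15 (-0.58) and Gbp2 (-0.51) followed. Ifit3 lost its call without vehicle IgG 1 and against αβ T cells drawn to the same depths (-0.93, edgeR FDR 0.0740). Isg15 lost it without vehicle IgG 1 or mavrilimumab 2, against αβ T cells drawn to the same depths (-0.41, edgeR FDR 0.448) and against those without co-receptors (edgeR FDR 0.147). Of 8 cell cycle genes 0 were called in either direction.

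Among genes outside the lists the largest differences included some of unknown role in T cells. Tdrd9, a helicase known from germ cells, stood at 55.4, 51.9, 51.8 and 33.4 CPM in γδ T cells and 0, 0.877, 0.0647 and 0 CPM in αβ T cells from 0, 4, 1 and 0 UMIs, so no fold is given. Serinc2 and Gm43434 were called higher from as few αβ UMIs, at 1, 2, 1 and 3 and at 0, 3, 5 and 1. Tns4, a focal adhesion protein (log2 fold change 6.26), Bmp4, a bone morphogenetic protein (6.11), Zbtb7c (5.93) and Abi3bp, an extracellular matrix protein (5.90), were also higher. Abi3bp stood at 226, 160, 185 and 166 CPM against 0, 11.6, 2.01 and 1.30 CPM. The largest falls were Dapl1 and Cd8a (both -6.07), Gm44174 (-5.87), Foxp3, the factor of regulatory T cells (-5.78), Ntrk3 (-5.13), Tnfrsf4 (-5.11), Il6ra (-4.98), Gzmk (-4.94), Als2cl (-4.36) and St8sia1 (-4.13). Cd8a and Foxp3 mark the CD8 and CD4 cells that the rule removes from γδ T cells, so their falls and the rule cannot be told apart.

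Markers of other cell types moved with the comparison. Of 5 natural killer (NK) cell genes tested, 1 was called higher, Ncr1, at 12.3, 7.18, 42.7 and 43.4 CPM against 0, 6.36, 1.29 and 7.39 CPM (log2 fold change 2.83, edgeR FDR 0.0406), and the call was lost without vehicle IgG 1, without mavrilimumab 1 and without mavrilimumab 2. Against αβ T cells without co-receptors its log2 fold change was 0.81 (edgeR FDR 0.430). The 7 NK genes summed to 125, 59.0, 223 and 595 CPM in γδ and 54.5, 276, 100.1 and 381 CPM in αβ T cells. Of 7 microglia genes 5 were lower and 0 higher, C1qa by -3.21 and C1qb by -3.10. With barcodes over 1% of other lineage UMIs removed C1qa had -1.42 and lost its call (edgeR FDR 0.0778). The microglia genes had summed levels of 469 to 3396 CPM in γδ and 729 to 2721 CPM in αβ T cells. Summed neural and tumour genes were at 1348 CPM in γδ and 1763 CPM in αβ T cells of vehicle IgG 2 and at 32.1 CPM or less in the other libraries. Monocyte and macrophage genes summed to 5.34 CPM or less in γδ T cells, neutrophil genes to 5.01 CPM or less and erythroid genes to 4.34 CPM or less, with none of the 3 lists tested, and B cell genes to 37.5 to 1144 CPM in γδ and 135 to 2543 CPM in αβ T cells, where Cd79b was higher (1.32) and Ighm lower (-1.66), both not called without vehicle IgG 1, and Cd79b not called against either other set of αβ T cells. Of the dendritic list 1 gene was tested, Siglech, and it was lower (-2.98), and of the innate lymphoid (ILC2) list 1 was tested and 0 called. Their part in the results was not tested.

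The γδ T cells were then divided by Trdv4, which the rule did not use, to ask how cells with and without it differed. There were 21 cells with and 8 without a Trdv4 UMI in vehicle IgG 1, 349 and 42 in vehicle IgG 2, 131 and 44 in mavrilimumab 1, and 133 and 72 in mavrilimumab 2. A minimum of 10 cells per class left 3 libraries for the edgeR test, and the values of vehicle IgG 1 are given without entering it. Of 8828 genes tested, 451 were higher with Trdv4 (5.11%) and 440 lower (4.98%), with a median log2 fold change of -0.01. Depth did not go one way, with medians of 18450, 2676, 6054 and 13472 UMIs with Trdv4 and 12598, 2574, 5630 and 16414 without it. A productive α or β contig was found for 25.0%, 25.0% and 16.7% of cells without Trdv4 in vehicle IgG 1 and mavrilimumab 1 and 2. With Trdv4 the shares were 0%, 16.8% and 9.02%. Whether the cells without Trdv4 include barcodes of αβ T cells or NK cells, whose genes are given below, was not tested.

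Type 17 genes were higher in cells with Trdv4 and type 1 genes in cells without it. Of 24 type 17 genes 19 were higher with Trdv4 and 1 lower (median log2 fold change 2.31), and of 20 type 1 genes 18 were lower and 1, Tnf, higher (median -4.06). Il23r stood at 851, 414, 420 and 388 CPM with Trdv4 and 136, 150, 53.4 and 55.9 CPM without, with no overlap (2.40, edgeR FDR 1.68e-04). Il1r1 was higher by 2.68, Ccr2 by 2.70, Blk by 2.80, Sox13 by 2.49, Maf by 2.38 and Serpinb1a by 3.29. Scart1 stood at 2950, 2352, 2915 and 2854 CPM with Trdv4 and 0, 261, 134 and 67.1 CPM without (4.35). Il17a stood at 114, 504, 210 and 202 CPM against 19.4, 248, 10.0 and 18.1 CPM (2.44), overlapping through vehicle IgG 2, and lost its call when the cells were divided by Trgv6 instead. Csf2, the GM-CSF gene, stood at 117, 116, 120 and 118 CPM with Trdv4, almost the same in every library, and 19.4, 58.8, 36.7 and 18.9 CPM without (1.95, edgeR FDR 1.04e-03).

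Scart2 was the type 17 gene that went the other way. It stood at 72.8, 4.54, 0 and 20.8 CPM with Trdv4 and at 253, 359, 90.2 and 176 CPM without, with no overlap (log2 fold change -4.29, SE 0.47, edgeR FDR 2.07e-04). Scart1 and Scart2, paralogues of the same scavenger receptor family, thus marked opposite sides of the division. Part of the cells without Trdv4 held no δ segment UMI, and other segments were seen in their sums, as a description. Trgv4 was at 131 to 310 CPM there and at 27.3 to 83.2 CPM with Trdv4. Trdv5 was at 174 to 321 CPM against 0.909 to 52.0 CPM, and Trdv1 at 19.6 to 165 CPM against 1.64 CPM or less.

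The type 1 side was carried by effector proteins and their regulators. Tbx21 stood at 10.4, 0, 19.0 and 32.8 CPM with Trdv4 and 175, 52.2, 194 and 137 CPM without (log2 fold change -2.77, edgeR FDR 6.00e-04). Gzmb, granzyme B, stood at 5.20, 2.73, 37.9 and 448 CPM against 505, 614, 1075 and 2806 CPM (-4.26). Ccl5 stood at 5.20, 5.45, 99.3 and 467 CPM against 2361, 1430, 2992 and 2625 CPM (-4.55). In all 3 genes the value without Trdv4 was higher in every library, and the cells with Trdv4 of mavrilimumab 2 stood above those of the other libraries. Nkg7 had a log2 fold change of -4.64, Gzma -4.51, Cd27 -4.47, Eomes -4.36, Klrd1 -4.15, Ifng -3.00, Xcl1 -4.71, Ly6c2 -4.97 and Ccl4 -6.76.

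Circulation and NK genes were lower with Trdv4, and other groups were called in part or not at all. Circulation genes were lower with Trdv4 in 6 of 6 (median log2 fold change -2.01). Among signalling genes 3 of 15 were higher with Trdv4, including Cd247 by 1.10 and Lat by 1.27, and 8 lower, including Lck by -3.48 and Themis by -4.39. The signalling adaptors Fcer1g (-4.15) and Tyrobp (-3.08), which NK cells use, were lower, with Fcer1g at 0, 4.54, 16.7 and 247 CPM against 641, 522, 861 and 1166 CPM. Among NK genes 4 of 4 tested were lower, Ncr1 by -3.51, Klrb1c by -3.39, Klre1 by -3.36 and Klra7 by -3.81. Of 7 checkpoint genes Pdcd1 was higher by 1.66 and 4 were lower, including Tigit (-2.77), Entpd1 (-2.31) and Cd160 (-4.13). Of 10 residency genes Cxcr6 was higher by 1.47 and 3 lower, including Itga1 (-3.42) and Zfp683 (-2.80), with 6 not called and a median of -0.14. Tnfsf11 (1.45) and Lta (1.36) were higher with Trdv4, Tnfsf11 losing its call when the cells were divided by Trgv6 (1.19, edgeR FDR 0.0968) and Lta without mavrilimumab 2. Of 15 interferon genes 1 was higher, Ly6a (1.38), which lost its call without mavrilimumab 2 and in the division by Trgv6, and 1 lower, Ifi27l2a (-1.21), and of 8 cell cycle genes 0 were called.

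Genes outside the lists included some seen only on 1 side. Serinc2, Mrc2, Rnf150, Npl and 4833412C05Rik had no UMI in cells without Trdv4 of any library, so no fold is given. Serinc2 stood at 72.8, 33.6, 52.4 and 44.2 CPM with Trdv4. Tdrd9 stood at 70.2, 58.2, 69.2 and 54.6 CPM against 0, 6.53, 0 and 0 CPM, and Lrrc17, Fat3 and Or13a27 had 13.1 CPM or less without Trdv4 and 15.6 to 54.7 CPM with it. The largest falls with Trdv4 beside the type 1 genes were Klra3 (log2 fold change -5.12), Dpp4 (-4.93) and Igfbp4 (-4.79). With vehicle IgG 2 left out 1443 genes were called and with mavrilimumab 2 left out 403.

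**Figure D4:**
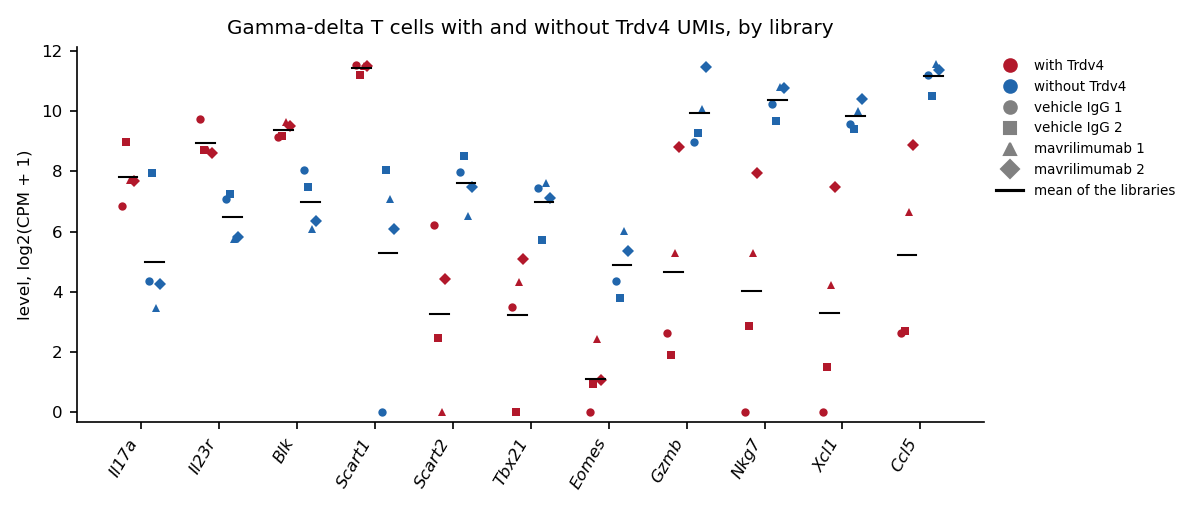
Levels of 11 genes of the type 17 and type 1 lists in γδ T cells with and without a Trdv4 UMI, as log2(CPM + 1), with 1 symbol per library and a bar at the mean. Il23r, Blk and Scart1 lie higher with Trdv4 (red), and Gzmb, Ccl5 and Scart2 higher without it (blue).

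The kinds of RNA held by single cells were counted at a common depth and as sequenced. After thinning to 1000 UMIs, 58.6%, 69.1%, 55.4% and 46.8% of γδ T cells in vehicle IgG 1 and 2 and mavrilimumab 1 and 2 held a UMI of Il17a, Il17f, Il23r, Blk or Ccr6 but none of Tbx21, Eomes, Ifng, Gzma, Gzmb or Prf1, and 17.2%, 2.81%, 16.6% and 23.9% the reverse. Both kinds were held by 0%, 0.767%, 1.14% and 0.488% and neither by 24.1%, 27.4%, 26.9% and 28.8%. Without thinning both kinds were held by 24.1%, 2.56%, 12% and 22.4% and neither by 0%, 6.65%, 2.29% and 1.46%, so how many cells held both depended on depth. Unthinned, the type 17 kind alone was held by 55.2%, 87.5%, 64.6% and 42.9% and the type 1 kind alone by 20.7%, 3.32%, 21.1% and 33.2%. In αβ T cells, thinned, the type 17 kind alone was held by 1.29%, 5.92%, 1.19% and 0.845% and the type 1 kind alone by 17.4%, 38.8%, 33.1% and 47.2%. Of γδ T cells with Trdv4, thinned, 76.2%, 73.4%, 71.8% and 66.9% held the type 17 kind and 4.76%, 1.15%, 3.05% and 9.02% the type 1 kind. Without Trdv4 the shares were 12.5%, 40.5%, 11.4% and 11.1%, and 50.0%, 23.8%, 61.4% and 52.8%. Unthinned, the type 17 kind was held by 100%, 94.6%, 96.9% and 90.2% with Trdv4 and 25.0%, 52.4%, 15.9% and 19.4% without it, and the type 1 kind by 28.6%, 2.87%, 17.6% and 42.9% and by 87.5%, 31.0%, 79.5% and 79.2%. Vehicle IgG 2 stood apart with the highest type 17 and lowest type 1 share among cells without Trdv4.

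The share of γδ T cells was compared between treatments, and its direction depended on the denominator. Of γδ and αβ T cells together, γδ T cells were 15.8% in vehicle IgG 1 (exact 95% interval 10.8% to 21.8%), 24.1% in vehicle IgG 2 (22.0% to 26.2%), 5.21% in mavrilimumab 1 (4.48% to 6.02%) and 9.25% in mavrilimumab 2 (8.07% to 10.5%). The groups did not overlap, with 19.9% ± 5.88 (SD, n = 2) and 7.23% ± 2.85 (SD, n = 2), a difference of -12.7 points (exact permutation test, two-sided, p = 0.3333, which 2 libraries against 2 cannot go below). Of all barcodes kept they were 2.95%, 1.46%, 2.73% and 3.73%, 1.03 points higher with mavrilimumab (2.20% ± 1.05 against 3.23% ± 0.711, SD, n = 2 each, exact permutation p = 0.667). Of barcodes with CD3 UMIs they were 12.3%, 7.78%, 3.19% and 7.02%, a difference of -4.95 points (exact permutation p = 0.3333). Without vehicle IgG 2 the first difference was -8.53 points. It was -21.4 points with a Trdc minimum of 1 UMI and -7.12 points with a minimum of 3. With γδ T cells free of Trac, Trbc1 and Trbc2 it was -7.42 points (exact permutation p = 1), and with barcodes holding 2 or more UMIs of other lineages removed -24.6 points, both of which leave 1 γδ T cell in vehicle IgG 1. In vehicle IgG 2, 3404 barcodes with CD3 UMIs fell in neither class, against 51, 2132 and 703 in vehicle IgG 1 and mavrilimumab 1 and 2. Whether fewer γδ or more αβ T cells lie behind a share cannot be told apart.

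**Figure D5:**
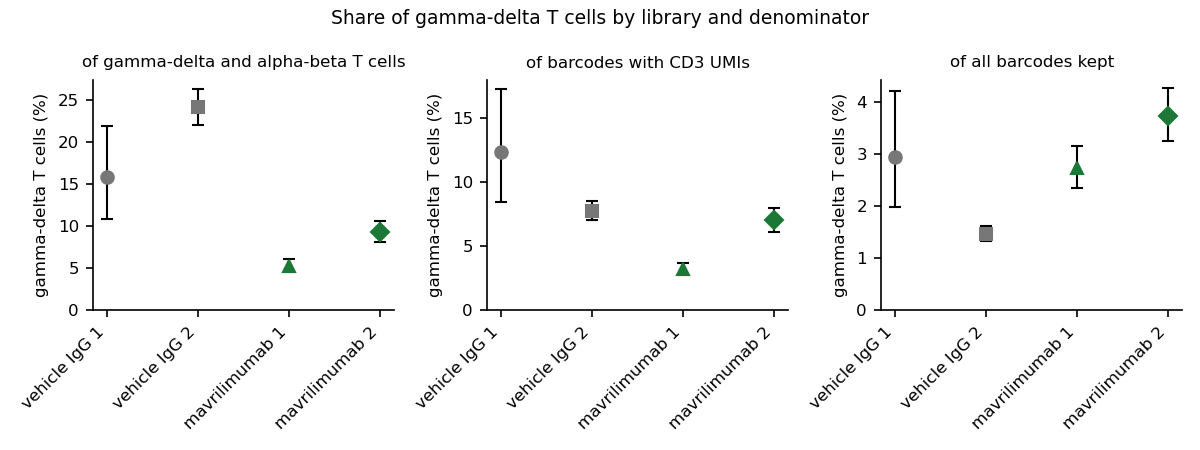
Percentage of γδ T cells in each library over 3 denominators, with exact binomial 95% intervals as bars. Over γδ plus αβ T cells the vehicle IgG libraries lie at 15.8% and 24.1% and the mavrilimumab libraries at 5.21% and 9.25%, while over all barcodes the order is not kept.

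Within γδ T cells, expression was compared between mavrilimumab and vehicle IgG. The edgeR test called 0 of 9347 genes (0.0% higher and 0.0% lower), with 847 at an unadjusted p under 0.05, while the Wald test of DESeq2 called 27. Without vehicle IgG 1, the library of 29 cells, edgeR called 986 of 10682 genes, 188 higher (1.76%) and 798 lower (7.47%). This fit has 1 vehicle IgG library, the shallow one with neural RNA, which is assumed to vary as the mavrilimumab pair does. Plac8, which is in none of the lists and is named outside the rule for naming genes, was at 26.7, 16.8, 125 and 144 CPM in the usual order of libraries. It was not called (log2 fold change 2.77, edgeR FDR 0.218). It was called by DESeq2, with doublets removed (edgeR FDR 0.0232), with the replicate block, without the filter on low counts and without vehicle IgG 1. Gzmb was at 111, 77.4, 298 and 1364 CPM (3.25, edgeR FDR 0.337), Nkg7 had 1.97 (edgeR FDR 0.368) and Ccl5 1.74 (edgeR FDR 0.403). Isg15, an interferon-stimulated gene, was at 179, 226, 468 and 426 CPM (1.17, edgeR FDR 0.337). Nkg7, Ccl5 and Isg15 were called higher by DESeq2 (adjusted p 4.55e-03, 0.0287 and 0.0268). Without vehicle IgG 1 their log2 fold changes were 2.68, 2.62 and 1.01. The edgeR fit without the filter on low counts called these genes and Gzmb higher. That fit called 947 of 18124 genes, and gave Gzmb an edgeR FDR of 4.04e-23 at a log2 fold change of 3.30, close to the 3.25 above. Its calls, here and for Plac8, are thus a description only.

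The median log2 fold change was 2.02 over 21 type 1 genes, 1.04 over 15 interferon genes and 2.31 over 5 NK genes, against -0.18 over 24 type 17 genes and -0.01 over all genes, with 0 called in each list. Without vehicle IgG 1, that is against 1 vehicle IgG library, 16 of 22 type 1, 9 of 15 interferon and 3 of 5 NK genes were called higher, against 1.76% of all genes. The share of γδ T cells without Trdv4, which hold the type 1 genes, was lowest in vehicle IgG 2 as given above, and its part in these values was not tested. Il17a, at 94.4, 473, 160 and 131 CPM, was not called (edgeR FDR 0.691), and both mavrilimumab values lay between those of vehicle IgG. It was called lower (-0.95, edgeR FDR 7.16e-03) in the fit without the filter on low counts, whose calls are a description only. Its log2 fold change was 0.71 without vehicle IgG 2 and -1.68 without vehicle IgG 1, each against the 1 vehicle IgG library left. With γδ T cells free of Trac, Trbc1 and Trbc2, which also leaves 1 vehicle IgG library, it was -2.06. Csf2 had -0.18 (edgeR FDR 0.841), with all 4 libraries between 79.8 and 109 CPM.

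Whether γδ T cells responded differently from αβ T cells was tested as the interaction of class and treatment. Of 12519 genes 1 was called higher (0.00799%) and 0 lower (0.0%) by edgeR, with 428 at an unadjusted p under 0.05. The gene was Gm2682 (ENSMUSG00000115681), a predicted gene without an assigned role here, at 101, 28.7, 202 and 211 CPM in γδ T cells and 1625, 541, 724 and 748 CPM in αβ T cells. The log2 fold change of γδ over αβ was higher, that is less negative, by 2.28 with mavrilimumab (SE 0.19, edgeR FDR 0.0263). The call was lost without vehicle IgG 2 (edgeR FDR 0.0786) and without mavrilimumab 2 (edgeR FDR 0.0891).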

How the data were processed

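Single-cell RNA was measured in 4 droplet libraries of sorted cells from mouse ependymoma, and T cell receptor contigs in TCR libraries, of which 3 were used and that labelled vehicle IgG 2 was not analysed here. The authors deposited unfiltered matrices of raw UMI counts per gene and droplet barcode over 33696 genes, written by Cell Ranger (per the file headers version 9.0.1, while the submitters' processing notes give 7 and 7.1.0, with Scanpy 1.8.2 and the build mm10), and the TCR files hold assembled contigs. Symbols are those the files pair with Ensembl identifiers. 1 gene of the lists, Fyb1, had no match.

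Barcodes were filtered and classes chosen by the limits given in the report, in Python 3.11.15 (pandas 2.3.3, scipy 1.17.1, scikit-learn 1.9.0, numpy 2.4.6). The class rule, the gene lists and the tests were chosen with earlier results of these data known. Where the study tested single cells with limma and edgeR, UMIs were here summed per library and class (at least 10 cells each) and tested with edgeR 4.0.16 in R 4.3.3 (TMM, filterByExpr, quasi-likelihood, Benjamini-Hochberg FDR of 0.05 over all genes tested), with the library as a block where classes of 1 library were compared and no block between treatments. Trdc, Cd3d, Cd3e, Cd3g, Cd8b1, Cd4 and Trac were left out of counts of calls, as were receptor segments for the division by Trdv4. Shares were compared by exact permutation tests over libraries, and exact binomial 95% intervals cover counting error only.

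Named are the genes of the lists, whatever their result, and up to 10 genes each way with the largest change among those past the FDR, changed the same way in every library tested, at 20 CPM or more on average in the higher class. Plac8, in the test between treatments, is named outside this rule. Doublets were scored with a Scrublet-like rule at 0.8% per 1000 barcodes. Detection shares were also computed after thinning each barcode to 1000 UMIs. Alternatives changed the Trdc minimum, the filters, the comparator, normalization (upper quartile), the test (Wald test of DESeq2 1.42.0), blocks and libraries. Removal of barcodes with over 1% of UMIs in markers of other lineages was 1 alternative added after seeing the data. Same-numbered libraries of the treatments did not deviate together (r = -0.02 over 9352 genes), and no label states that numbers pair samples. The main fit of each edgeR comparison was also run on simulated counts, and the fits of the alternatives were not. Promoters are from RefSeq, GRCm38.p6. Some list genes are counted in the list totals but are not reported here by name or plotted.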

Additional observations from a re-analysis of the deposited data

Results flagged for a closer look

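The effect of class on Gm2682 differed between treatments in a test of the difference itself, the interaction of class and treatment in edgeR, and was the 1 such gene among 12519 tested. Its log2 fold change of γδ over αβ was higher, that is less negative, by 2.28 in libraries labelled mavrilimumab (SE 0.19, edgeR FDR 0.0263). It was lost without vehicle IgG 2 and without mavrilimumab 2. In αβ T cells the highest value was that of vehicle IgG 1, at 1625 CPM, and in γδ T cells the lowest was that of vehicle IgG 2, at 28.7 CPM.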

How the results depend on the processing

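When single libraries were left out, the genes called between γδ and αβ T cells ranged from 1069 to 1628, those between treatments from 0 to 986, those of the interaction from 0 to 110 and those of the division by Trdv4 from 403 to 1443, where the lowest and highest came without mavrilimumab 2 and without vehicle IgG 2. The division has no value without vehicle IgG 1, which its cell minimum had already left out. The γδ and αβ call count was 872 for γδ T cells free of Trac, Trbc1 and Trbc2, which also drops vehicle IgG 1 (1274 without that library alone), 411 with barcodes holding 2 or more UMIs of other lineages removed, which leaves 2 libraries and fewer genes tested, 1091 against αβ T cells without co-receptors and 696 without the library block, without which the division by Trdv4 gave 345. Every other alternative for that comparison with all 4 libraries stayed within 1.5 times of 1801. Between treatments edgeR called 163 genes with γδ T cells free of αβ RNA, in a fit that also lacks vehicle IgG 1 (986 without that library alone), 2 with doublets removed, 947 without the filter on low counts, and DESeq2 27. With 2 libraries left the removal of barcodes with other lineages could not be fitted there. With the replicate block, that is with same-numbered libraries treated as paired, 18 genes were called, and as the numbers are not stated to pair samples this is a description only. The γδ share was 1.03 points higher with mavrilimumab over all barcodes and lower by every other setting. The log2 fold change of Il17a between treatments ranged from -1.68 to 0.71 with a library left out. The cause of these changes was not tested. The 29 γδ T cells of vehicle IgG 1 and the 2672 UMIs of the median γδ T cell in vehicle IgG 2 limit what can be seen between treatments.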
